A study of Mus musculus with 39 samples.

Results

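The cathepsins are the proteases of the lysosome, and 10 of their genes, Ctsa, Ctsb, Ctsc, Ctsd, Ctse, Ctsh, Ctsk, Ctsl, Ctss and Ctsz, were followed by gene symbol through the kidney, liver, lung and skin of perforin-deficient mice. All 10 were listed both in the table of 24537 genes that holds kidney, liver and lung and in the table of 52508 genes that holds skin. Every mouse was of the C57BL/6 strain and Prf1-/-, so the young and the vehicle-treated old mice lack perforin as well, and there is no wild-type group. Young mice were 3 months old and untreated. Old mice received the BCL-2 family inhibitor ABT-737 at 25 mg/kg, or its vehicle, in monthly courses from 18 months of age, and were 20 months old at analysis. Each tissue gave 3 ABT-737-treated, 3 vehicle-treated and 4 young libraries, except for skin with 3 young libraries, which makes 39 libraries in all. The tissues were perfused and processed whole, so the RNA is that of all their cells. The treatment labels of ABT-737 replicates 4 and 5 read ABT-738 and ABT-739, and these libraries were placed by their titles.

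Cathepsins are made as inactive proenzymes, carried to the lysosome largely by mannose 6-phosphate receptors, and activated there by acid and by other proteases. They differ in their catalytic residue. Ctsd and Ctse encode aspartic proteases, Ctsa encodes a serine carboxypeptidase, and the other members encode cysteine proteases of the papain family. Ctsb, Ctsd, Ctsl, Ctsh, Ctsz and Ctsa are transcribed in most cell types as part of the general lysosomal equipment, whereas Ctss is typical of antigen-presenting cells, where its enzyme trims the invariant chain of MHC class II molecules. Ctsk is best known from osteoclasts and from activated fibroblasts, Ctse from gastric and immune cells, and Ctsc encodes the dipeptidyl peptidase that activates the serine proteases of lymphocyte, neutrophil and mast cell granules. Transcription of many lysosomal genes is promoted by TFEB and TFE3 through the CLEAR element, and that of Ctss by interferon-regulated and myeloid factors.

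Promoter sequence from RefSeq (GRCm38.p6) was listed for 7 of the 10 genes, in windows from 250 bases before to 50 bases after the annotated start. Ctsb, Ctse and Ctsh had no window. Stretches of 60 bases are shown for the 4 genes whose windows held a lysosomal, interferon or myeloid motif. They are written 5′ to 3′ on the gene's strand with the matched motif in capitals, and base 1 is the first transcribed base by the annotation of the windows.
Ctsa: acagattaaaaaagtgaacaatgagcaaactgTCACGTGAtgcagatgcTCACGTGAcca
Ctsd: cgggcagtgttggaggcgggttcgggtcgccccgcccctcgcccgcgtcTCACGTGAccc
Ctss: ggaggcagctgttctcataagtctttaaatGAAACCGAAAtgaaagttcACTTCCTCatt
Ctsc: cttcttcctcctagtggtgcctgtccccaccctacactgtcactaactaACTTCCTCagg

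The Ctsa stretch lies at chr2:164833728-164833787, plus strand, bases -45 to 15, and holds the CLEAR core TCACGTGA at -13 to -6 and again at 5 to 12. The Ctsd stretch lies at chr7:142387916-142387975, minus strand, bases -148 to -89, with the same core at -99 to -92. The counted Ctsd transcripts start elsewhere than its window does, at 142387870 for kidney, liver and lung and at 142388038 for skin. The Ctsa transcript counted in skin also starts elsewhere, at 164832873. The Ctss stretch lies at chr3:95526735-95526794, plus strand, bases -51 to 9, with the interferon response motif (GAAA, any 2 bases and GAAA again) at -21 to -12 and the PU.1-type motif GAGGAAGT, on the opposite strand, at -2 to 6. The Ctsc stretch lies at chr7:88277885-88277944, plus strand, bases -200 to -141, and holds the same PU.1-type motif on the opposite strand at -151 to -144. Both strands of every window were searched. Of all 32851 mouse windows, 0.974% held TCACGTGA, 3.44% held the interferon response motif and 3.2% held GAGGAAGT. Among the 7 genes, TCACGTGA was found only in Ctsa and Ctsd, the interferon response motif only in Ctss, and GAGGAAGT only in Ctss and Ctsc. The E-box CACGTG, which TCACGTGA contains, was in 7.15% of windows and in those of Ctsa, Ctsd and Ctsl, and the gamma-activated motif TTCNNNGAA was in 8.3% and only in that of Ctsc among the members. These matches describe the letters in the windows.

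Total counts per library ran from 1493411 to 3842808 in skin, 1431814 to 3513311 in kidney and 1046508 to 2600092 in lung, and liver was shallowest with 223957 to 891116. The shallowest of all, liver vehicle replicate 3 with 223957 counts, stood apart from the other liver libraries in several members, and lung vehicle replicate 5 was the highest of its group for 8 of the 9 members tested there, and several values are also given without them. Prf1 itself had 0 to 4 counts in liver, 1 to 11 in kidney, 1 to 68 in lung and 15 to 169 in skin, and the part of the gene that was removed is not stated in the labels, so a count at the 3′ end is no check of the genotype. Values below are counts scaled by TMM library size to CPM. They are used here to compare a gene between libraries and not one gene with another. In whole tissue, fewer cells of a type and less RNA per cell cannot be told apart.

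Before age and treatment are considered, the young kidney, liver and lung differed in the level of several cathepsin genes. On a scale common to the 3 tissues, 3 of the 9 members tested were called between young kidney and young liver, where 41.2% of 13107 genes were called, 6 of 9 between kidney and lung (64.3% of genes) and 6 of 9 between liver and lung (62.2% of genes). The members were thus called about as often as genes in general. Leaving aside Ctsk, which was at the floor in liver, the widest differences were those of Ctsl, the broad endopeptidase, low in lung, and of Ctsc and Ctss, high in lung.

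Ctsl measured 574, 594, 513 and 560.4 CPM in the 4 young kidney libraries, 716, 859, 839.7 and 672 in liver and 51.4, 57.7, 57.7 and 50.4 in lung. No lung library came near any library of the other tissues. The log2 fold change was 3.37 ± 0.33 (SE, edgeR adjusted p = 1.03e-10) for kidney over lung and 3.83 ± 0.34 (SE, edgeR adjusted p = 9.79e-12) for liver over lung, while kidney and liver differed by -0.46 ± 0.30 (SE, edgeR adjusted p = 0.234), which did not pass. Ctsb, an endopeptidase and carboxydipeptidase, had the same order of tissues, with 881 ± 105 CPM (SD, n = 4) in liver, 552 ± 25.0 in kidney and 273 ± 31.4 in lung, and both steps to lung were called (1.69 ± 0.29 SE, edgeR adjusted p = 7.1e-06 from liver and 1.02 ± 0.29 SE, edgeR adjusted p = 0.00238 from kidney). Its liver and kidney levels differed by -0.67 ± 0.29 (SE, edgeR adjusted p = 0.0572). Ctsa was highest in kidney at 299 ± 26.9 CPM, against 208 ± 25.8 in liver and 178 ± 20.6 in lung, and of its calls that against lung (0.75 ± 0.20 SE, edgeR adjusted p = 0.00119) was the firmer, since that against liver (0.52 ± 0.20 SE, edgeR adjusted p = 0.0379) was lost in 4 of 4 alternative analyses.

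Ctsc ran the opposite way. It measured 10.3, 16.1, 13.6 and 15.5 CPM in young kidney, 54.9, 74.3, 71.7 and 43.9 in liver and 125, 142, 114 and 146 in lung, 3 ranges that do not overlap, and all 3 pairs were called, the widest being kidney against lung at -3.23 ± 0.33 (SE, edgeR adjusted p = 1.73e-10). For Ctss the values were 14.9, 19.1, 18.6 and 23.7 CPM in kidney, 49.7, 37.1, 50.6 and 31.0 in liver and 93.9, 87.7, 116 and 101 in lung. Lung lay above kidney by 2.38 log2 units (edgeR, adjusted p = 6.49e-05) and above liver by 1.24 (adjusted p = 0.0417), a call that was lost without 7 of the 8 libraries compared, at adjusted p up to 0.0998, and liver and kidney did not differ beyond their spread (adjusted p = 0.104). Ctsk, the collagen-degrading member, was also highest in lung, at 23.7 ± 7.16 CPM against 5.89 ± 0.849 in kidney (-2.02 ± 0.37 SE, edgeR adjusted p = 1.52e-05). With at most 1 count in a young liver library, Ctsk was at the floor there, and at 3 counts per liver library its lung level was at least 3.37-fold higher.

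Ctsz, a carboxypeptidase, was highest in liver at 279.6 ± 63.1 CPM, above lung at 152 ± 34.5 (0.88 ± 0.25 SE, edgeR adjusted p = 0.0029) and kidney at 133 ± 7.68 (adjusted p = 0.000635). Lung and kidney did not differ from each other beyond their spread (adjusted p = 0.488). Ctsd and the aminopeptidase gene Ctsh were not called in any pair, with Ctsd means of 868 ± 52.1, 899 ± 77.0 and 793 ± 146 CPM in kidney, liver and lung. Of the 9 members tested, Ctsd had young tissue means that lay closest together in ratio. Skin was counted on another annotation and is not compared in level. Its young libraries had 3.62, 16.7 and 26.8 CPM of Ctss, 2.89, 6.91 and 14.6 of Ctsc and 765, 765 and 780.0 of Ctsd.

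**Figure D1:**
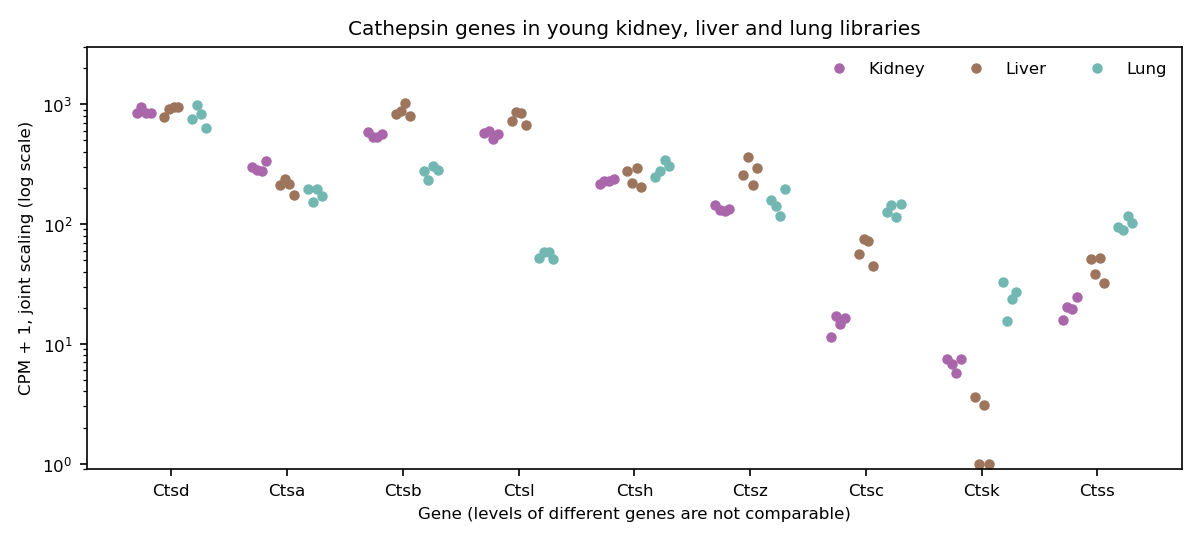
Level of each cathepsin gene in the 4 young libraries of kidney, liver and lung, as CPM on the joint scale plus 1, on a log axis. Each point is a library. Ctsl is about 54.3 CPM on average in lung against 560.3 in kidney and 772 in liver, and Ctsc and Ctss climb from kidney to lung.

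Age was addressed by the vehicle-treated old mice against the young mice. The young mice received no vehicle, so age and vehicle treatment cannot be told apart, and a difference with age means one between these groups. Cathepsin transcripts were higher in old tissue or not called, and no member was called lower in any of the 4 tissues. In kidney 2 of 9 members tested rose, where 13.3% of 11123 genes were called and 7.75% as higher. Skin had 5 of 10 members higher (11.2% of 14224 genes called, 5.84% as higher), lung had 4 of 9 (12.9% of 11949 called, 8.15% as higher) and liver had 4 of 8 (22.6% of 5583 called, 11.7% as higher). The median log2 fold change over the members tested was 1.39 in skin, 1.13 in lung (0.68 without lung vehicle replicate 5), 0.89 in liver and 0.32 in kidney, beside 0.05, 0.04, 0.02 and 0.01 over all genes tested. Vehicle and young libraries did not overlap for 6, 3, 5 and 10 of those members in kidney, liver, lung and skin, where this held for 27.8%, 32.8%, 29.8% and 39.5% of genes. Of these, Ctsl and Ctsh in kidney were lower in vehicle-treated mice. The liver count, 3 of 8, lies near its share. Skin includes Ctse, with 45, 2 and 4 counts in vehicle libraries and 0 in each young one. Without liver vehicle replicate 3 the count of members called in liver was 6 (24.7% of genes called, 13.3% as higher), and without lung vehicle replicate 5 that in lung was 1, Ctss (4.08% of genes called, 3.13% as higher). In skin it was 0 without young replicate 1 or 2. Ctss was the 1 member called in all 4 tissues, and Ctsd was called in liver, lung and skin.

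The effect of the drug was read from ABT-737-treated against vehicle-treated old mice. Ctss fell in kidney and in liver, and no other member was called. That is 1 of 9 members tested in kidney, where 1.35% of genes were called and 1.21% as lower, and 1 of 8 in liver (3.85% of genes, 2.85% as lower). In lung 0 of 9 and in skin 0 of 10 members were called by edgeR, where 0% of all genes were, with 2 members at an unadjusted p under 0.05 in each, all lower, beside 16.1% of genes in lung and 7.97% in skin, and DESeq2 also called 0 members in both. Ctss included, the fold change was below 0 for 9 of 9 members in lung, 8 of 8 in liver, 9 of 10 in skin and 7 of 9 in kidney, with medians of -0.67, -0.75, -0.31 and -0.14 beside 0.04, -0.03, 0.04 and 0.01 for all genes tested. These tallies rest partly on vehicle replicate 5, without which 7 of 9 were below 0 in lung (median -0.24), 6 of 10 in skin (median -0.14) and 6 of 8 in liver (median -0.79). Without liver vehicle replicate 3, 4 members fell in liver, namely Ctsc, Ctsl, Ctss and Ctsz, where 8.78% of genes were called and 5.64% as lower. The vehicle libraries are common to this comparison and to that with young mice, so their values enter both with opposite sign.

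**Figure D2:**
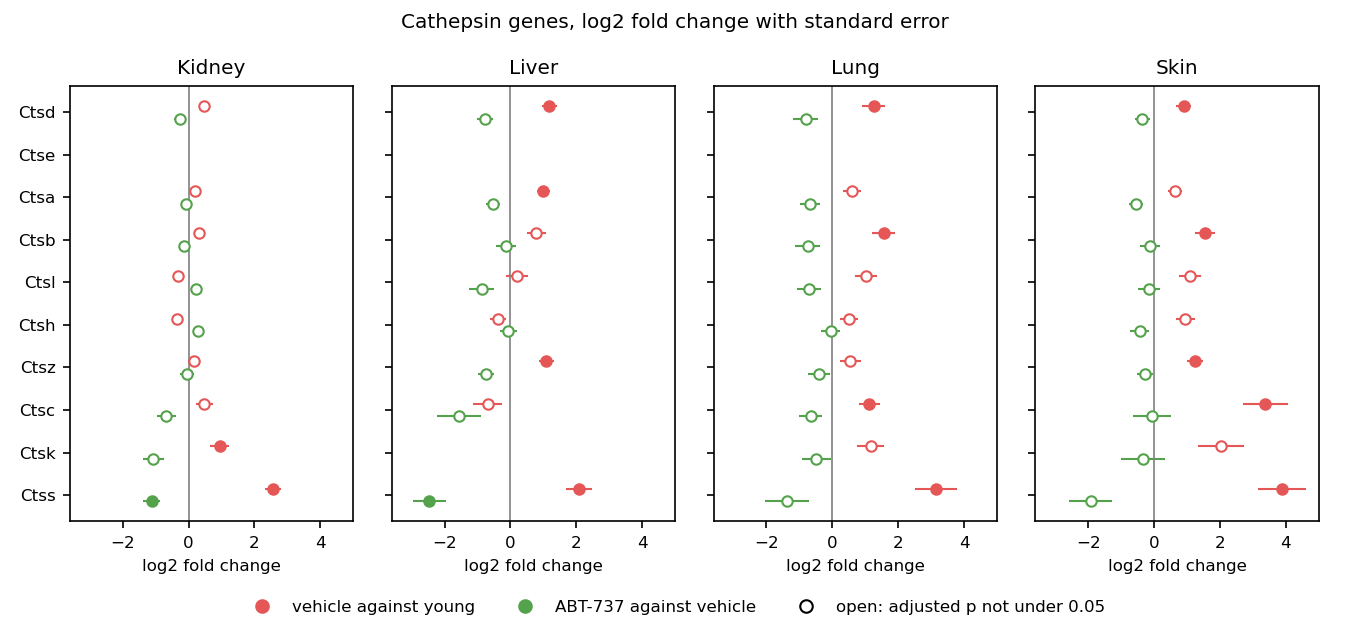
Log2 fold change with its standard error for each cathepsin gene in 4 tissues, for vehicle against young (red) and ABT-737 against vehicle (green). Filled points passed at an adjusted p under 0.05; Ctse, and Ctsk in liver, are not drawn. Ctss has the largest positive age difference in each tissue, and in kidney and liver the only filled green points.

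Ctss, the class II-processing cysteine protease (chr3:95526786-95556405 on the plus strand in mm10, next to Ctsk at chr3:95499210-95509387), was the member called in the most comparisons. In kidney it measured 16.7, 20.9, 20.8 and 26.8 CPM in young, 138, 168 and 72.8 in vehicle-treated and 42.6, 64.8 and 64.9 in ABT-737-treated mice. The 3 groups did not overlap, with the treated mice between the other groups. The log2 fold change was 2.56 ± 0.25 (SE, edgeR adjusted p = 7.85e-06) for vehicle against young, -1.13 ± 0.26 (SE, edgeR adjusted p = 0.0393) for ABT-737 against vehicle and 1.43 ± 0.26 (SE, edgeR adjusted p = 0.00811) for ABT-737 against young. The fall with ABT-737 is close to the threshold, since it passed only without kidney vehicle replicate 5 (adjusted p = 0.00364) when a library was left out and lay between 0.0502 and 0.198 without any other of the 10, young ones included, and at 0.127 when only the 2 groups compared were fitted.

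In liver Ctss measured 36.8, 26.8, 36.9 and 23.0 CPM in young, 34.9, 188 and 141 in vehicle-treated and 11.9, 15.2 and 42.1 in ABT-737-treated mice. Vehicle replicate 3, the shallowest library with 8 Ctss counts, lay among the young mice and below ABT-737 replicate 5. The log2 fold change of Ctss was 2.08 ± 0.40 (SE, edgeR adjusted p = 0.00182) with age and -2.46 ± 0.49 (SE, edgeR adjusted p = 0.00866) with ABT-737, and the treated and the young mice differed by -0.38 ± 0.54 (SE, edgeR adjusted p = 0.699). Without vehicle replicate 3 the rise with age was 2.41 ± 0.28 (SE, edgeR adjusted p = 6.02e-06) and the change with ABT-737 was -2.78 ± 0.35 (SE, edgeR adjusted p = 3.91e-05). Without ABT-737 replicate 4 the adjusted p was 0.0872, and with only the 2 groups compared it was 0.0645.

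In lung the young mice had 118, 109.9, 147 and 125 CPM, the vehicle-treated mice 777, 331 and 2225 and the ABT-737-treated mice 114, 285 and 874. All vehicle libraries exceeded all young ones, and the treated libraries spanned the gap between them. The rise with age was 3.15 ± 0.64 (SE, edgeR adjusted p = 0.00687), and 2.15 ± 0.55 without vehicle replicate 5 (adjusted p = 0.0455). For ABT-737 against vehicle the value was -1.39 ± 0.67 (SE, edgeR adjusted p = 0.324). In this tissue same-numbered vehicle and ABT-737 libraries deviated together, and with the replicate number as a block Ctss passed at -1.43 ± 0.36 (SE, edgeR adjusted p = 0.0303), 1 of 9 members where 7.31% of genes were called and 3.5% as lower. That fit blocks the old mice alone. A separate fit that also blocks the young libraries by number, which deviated little with the vehicle ones (r = 0.06 and 0.11), gave a rise of Ctss with age in lung of 1.99 (edgeR, adjusted p = 0.0527) and called 0 members for age there. The pairing was not clear-cut, since vehicle replicate 4 correlated about as well with ABT-737 replicate 3 (r = 0.30) as with replicate 4 (r = 0.30). That pairing was inferred from these same counts and is not in the labels. Differently numbered libraries correlated too in kidney and skin, at r up to 0.32 and 0.73. The blocked value is therefore no separate support for a fall of Ctss. By that inferred pairing, the ABT-737 library was below its vehicle library in each of the 3 numbers. Unpaired, the groups overlapped, with ABT-737 replicate 5 at 874 CPM above vehicle replicates 3 and 4 at 777 and 331. Without vehicle replicate 5 the unblocked value was -0.38 (adjusted p = 0.94).

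In skin Ctss measured 3.62, 16.7 and 26.8 CPM in young, 141, 168 and 411 in vehicle-treated and 72.1, 25.9 and 90.5 in ABT-737-treated mice. Vehicle overlapped neither of the other groups, whereas ABT-737 replicate 4 fell inside the young range. The log2 fold change was 3.89 ± 0.73 (SE, edgeR adjusted p = 0.0167) with age and -1.93 ± 0.65 (SE, edgeR adjusted p = 0.519) with ABT-737, of which only the first passed. The age call was lost without young replicate 1 or 2 (adjusted p = 0.0627 and 0.0764). Its fold values with age were 14.8 in skin, 8.88 in lung, 5.90 in kidney and 4.23 in liver.

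**Figure D3:**
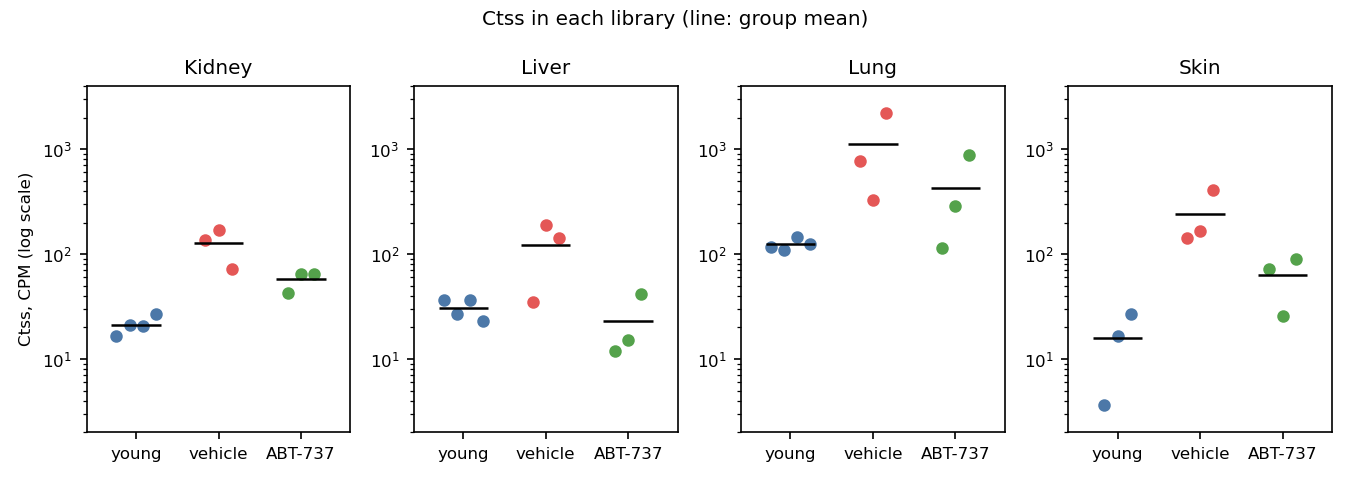
Ctss in each of the 39 libraries, in CPM on a log axis, by tissue and group, with the group mean as a line. Skin comes from another count table. Every vehicle library lies above every young library in kidney, lung and skin, and in liver vehicle replicate 3 at 34.9 CPM does not.

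Ctsd, the main aspartic protease, with the CLEAR core in its promoter stretch, rose with age in 3 tissues. In liver it measured 583, 660.2, 687 and 708 CPM in young, 1981, 1379 and 1146 in vehicle-treated and 943, 816 and 879 in ABT-737-treated mice, with no overlap among the 3 groups and the highest value in vehicle replicate 3. The rise with age was 1.18 ± 0.23 (SE, edgeR adjusted p = 0.00178), and the difference between ABT-737 and vehicle was -0.77 ± 0.25 (SE, edgeR adjusted p = 0.106). Without vehicle replicate 3 these were 0.94 and -0.51 (edgeR adjusted p = 0.00136 and 0.138), and without vehicle replicate 5 the second passed at -0.91 (adjusted p = 0.0469). In lung the values were 943, 1223, 1035 and 775 CPM in young and 1411, 2036 and 3690.4 in vehicle-treated mice (1.26 ± 0.35 SE, edgeR adjusted p = 0.0285), groups that do not overlap, and the adjusted p was 0.177 without vehicle replicate 5 and 0.055 to 0.0887 without any 1 young library. In skin they were 765, 765 and 780.0 in young and 1432, 1135 and 1744 in vehicle-treated mice (0.90 ± 0.23 SE, edgeR adjusted p = 0.0371), again without overlap, a call lost without any of 6 of the 9 libraries (adjusted p up to 0.123). Kidney missed the threshold with 951, 1037, 938 and 947 CPM in young and 1083, 1662 and 1304 in vehicle-treated mice (0.48 ± 0.16 SE, edgeR adjusted p = 0.0533), which do not overlap either.

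Ctse, the other aspartic protease, was barely detected. It had 0 to 2 counts per liver library, 0 to 9 in kidney and 0 to 25 in lung, where the vehicle libraries held 5, 25 and 13 counts and the young ones 0, 0, 1 and 2, and it was tested only in skin. There the counts were 0, 0 and 0 in young, 45, 2 and 4 in vehicle-treated and 0, 126 and 186 in ABT-737-treated mice, so single old libraries carried the transcript and no comparison passed (adjusted p = 0.264 for vehicle against young, 0.759 for ABT-737 against vehicle and 0.113 for ABT-737 against young).

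Ctsa, the serine carboxypeptidase that also shields lysosomal galactosidase and neuraminidase, rose in liver alone among the calls. Its values there were 157, 169.9, 155 and 129 CPM in young, 301, 337 and 279 in vehicle-treated and 246, 184 and 213 in ABT-737-treated mice, 1.0 ± 0.20 (SE, edgeR adjusted p = 0.00226) with age and -0.52 ± 0.22 (SE, edgeR adjusted p = 0.233) with ABT-737. The treated mice lay between the other groups without touching either. In lung vehicle replicate 5, at 481 CPM, was far above replicates 3 and 4 at 215 and 318, and the change with age there was 0.60 ± 0.28 (SE, edgeR adjusted p = 0.166). Whether the liver rise differed from that in kidney or lung was tested and did not pass (adjusted p = 0.25 and 0.447).

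Among the broad cysteine proteases, Ctsb rose in lung and skin. In lung it measured 344, 289, 385 and 348 CPM in young, 706, 716 and 1593 in vehicle-treated and 370.3, 753 and 682 in ABT-737-treated mice (1.56 ± 0.35 SE, edgeR adjusted p = 0.0117 with age), and without vehicle replicate 5 the adjusted p was 0.0764. In skin it measured 312, 356 and 423 CPM in young, 898, 941 and 1326 in vehicle-treated and 597, 1099 and 1203 in ABT-737-treated mice. Every old skin library, treated or not, exceeded every young one, at 1.54 ± 0.30 (SE, edgeR adjusted p = 0.0186) for vehicle and 1.41 ± 0.30 (SE, edgeR adjusted p = 0.035) for ABT-737 against young. The call for vehicle was lost without young replicate 1, young replicate 2 or vehicle replicate 5 (adjusted p from 0.056 to 0.0864), and that for ABT-737 without any of 6 of the 9 libraries (from 0.0505 to 0.15). In liver, vehicle replicate 3 stood apart within its group, at 502, 1345 and 1465 CPM in replicates 3, 4 and 5, and the difference from young, 0.78 ± 0.29 (SE, edgeR adjusted p = 0.0637) with it, was 1.12 ± 0.19 (adjusted p = 0.000286) without it. Without vehicle replicate 5 instead, that difference was 0.52 (edgeR, adjusted p = 0.235).

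Ctsl and Ctsh had opposite signs with age in kidney and skin. In kidney Ctsl measured 642, 651, 572 and 634 CPM in young and 512, 491 and 481 in vehicle-treated mice, and Ctsh 238, 247, 255 and 269 and 177, 202 and 209. Both were lower in every vehicle library than in any young one, with log2 fold changes of -0.34 ± 0.14 (SE, edgeR adjusted p = 0.119) and -0.37 ± 0.12 (SE, edgeR adjusted p = 0.0641), without passing. In skin Ctsl was 121, 185 and 227 CPM in young and 262, 338 and 534 in vehicle-treated mice, and Ctsh 60.8, 69.6 and 95.1 and 102, 151 and 185. Here every vehicle library was higher, by 1.09 ± 0.33 (SE, edgeR adjusted p = 0.0628) and 0.95 ± 0.29 (SE, edgeR adjusted p = 0.0645), also short of the threshold. In liver Ctsl split the vehicle mice, at 214, 1014 and 694 CPM against 357, 412 and 292 with ABT-737, and the difference, -0.88 ± 0.38 (SE, edgeR adjusted p = 0.255), passed at -1.26 ± 0.23 (adjusted p = 0.0014) without vehicle replicate 3. Its age difference there, 0.20 ± 0.35 (SE, edgeR adjusted p = 0.726), passed likewise at 0.60 (adjusted p = 0.0463). Without vehicle replicate 5 instead, neither passed, at -0.81 with ABT-737 and 0.15 with age (edgeR, adjusted p = 0.324 and 0.819).

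Ctsz rose in liver and skin. The liver values were 188, 259, 154 and 219 CPM in young, 362, 534 and 409.7 in vehicle-treated and 229.9, 302 and 253 in ABT-737-treated mice (1.09 ± 0.23 SE, edgeR adjusted p = 0.00306 with age and -0.74 ± 0.25 SE, edgeR adjusted p = 0.125 with ABT-737). In skin they were 49.9, 38.0 and 50.5, 105, 86.1 and 135 and 68.5, 94.4 and 106 CPM in the same order of groups (1.23 ± 0.24 SE, edgeR adjusted p = 0.0189 with age). Vehicle and young mice did not overlap in either tissue. In skin the call was lost without young replicate 1, young replicate 2 or vehicle replicate 5 (adjusted p from 0.0564 to 0.083).

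Ctsc, the activator of granule proteases, was higher with age in skin and lung and not in liver. In skin it measured 2.89, 6.91 and 14.6 CPM in young, 45.7, 58.7 and 161 in vehicle-treated and 38.7, 105 and 112 in ABT-737-treated mice, and rose with age by 3.38 ± 0.69 (SE, edgeR adjusted p = 0.0205), a 10.4-fold difference. The treated skin lay near the vehicle level, 3.32 ± 0.69 (SE, edgeR adjusted p = 0.0325) above young and -0.06 ± 0.59 (SE, edgeR adjusted p = 0.997) against vehicle, so the interval of that last difference is wide. The call for vehicle was lost without young replicate 1, young replicate 2 or vehicle replicate 5 (adjusted p from 0.0559 to 0.0863), and that for ABT-737 without any young library or without ABT-737 replicate 4 or 5 (from 0.059 to 0.131). In lung Ctsc went from 157, 178, 144 and 180.4 CPM in young to 299.8, 229 and 549.9 in vehicle-treated mice (1.13 ± 0.32 SE, edgeR adjusted p = 0.0321), with an adjusted p of 0.244 without vehicle replicate 5 and of 0.0704 to 0.0985 without any 1 young library.

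Liver ran against this. Ctsc measured 40.7, 53.6, 52.2 and 32.6 CPM in young, 0, 49.2 and 18.0 in vehicle-treated and 7.93, 11.4 and 7.43 in ABT-737-treated mice, and vehicle replicate 3 held 0 counts, which at its depth allows up to 3. ABT-737 replicates 3, 4 and 5 held 2, 6 and 3 counts, near the floor, so the size of a difference from them is uncertain. The ABT-737-treated mice were below every young mouse (-2.26 ± 0.60 SE, edgeR adjusted p = 0.0287), the 1 of 8 members called there, where 8.4% of genes were called and 5.27% as lower. That call was lost without young replicate 2 or 3 or any of the ABT-737 libraries (adjusted p from 0.069 to 0.123). Only the young group had enough Ctsc counts for the gene to be tested in liver. Treated mice could thus be called lower than young there, but hardly higher. Vehicle against young gave -0.69 ± 0.44 (SE, edgeR adjusted p = 0.281). The age differences of Ctsc in liver and lung differed from each other by -1.83 ± 0.52 (SE, edgeR adjusted p = 0.0198). Ctsc was the 1 of 9 members called there, a share near the 11.4% of all genes, and no member was called between the other tissues. The call was lost without liver vehicle replicate 5 (adjusted p = 0.0705) or lung vehicle replicate 5 (0.0849).

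Ctsk, the collagenolytic member, rose in kidney from 7.29, 6.34, 5.27 and 7.39 CPM in young to 13.4, 16.4 and 8.45 in vehicle-treated mice and stood at 5.14, 4.95 and 7.79 after ABT-737. Vehicle lay above both other groups without overlap, at 0.95 ± 0.28 (SE, edgeR adjusted p = 0.0365) against young, while ABT-737 against vehicle gave -1.07 ± 0.33 (SE, edgeR adjusted p = 0.124). DESeq2 gave an adjusted p of 0.0811 for the rise, and it passed in 4 of 10 fits with a library left out. In skin it was 31.1, 85.7 and 136 CPM in young, 218, 457 and 364 in vehicle-treated and 516, 73.2 and 231 in ABT-737-treated mice, a spread too wide for a call (2.03 ± 0.70 SE, edgeR adjusted p = 0.0855 with age). Liver held at most 3 counts of Ctsk per library, and the gene was not tested in the fit of liver alone. The joint fit of kidney, liver and lung did test it. Its call between young liver and young lung and its tissue differences with liver rest on these few counts.

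The members not called, Ctse aside, spanned these log2 fold changes. With age the range in skin was 0.64 for Ctsa to 2.03 for Ctsk, in lung 0.50 for Ctsh to 1.16 for Ctsk, in liver -0.69 for Ctsc to 0.78 for Ctsb and in kidney -0.37 for Ctsh to 0.48 for Ctsc. Without lung vehicle replicate 5, Ctsk in lung was 0.37. With ABT-737 against vehicle the range in skin was -1.93 for Ctss to -0.06 for Ctsc, in lung -1.39 for Ctss to -0.05 for Ctsh, in liver -1.57 for Ctsc to -0.06 for Ctsh and in kidney -1.07 for Ctsk to 0.28 for Ctsh. A missed threshold does not show equal levels, and the spread between libraries was wider in lung and skin than in kidney, with biological coefficients of variation of 31.7% and 34.9% against 16.5%, and 23.5% in liver.

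**Figure D4:**
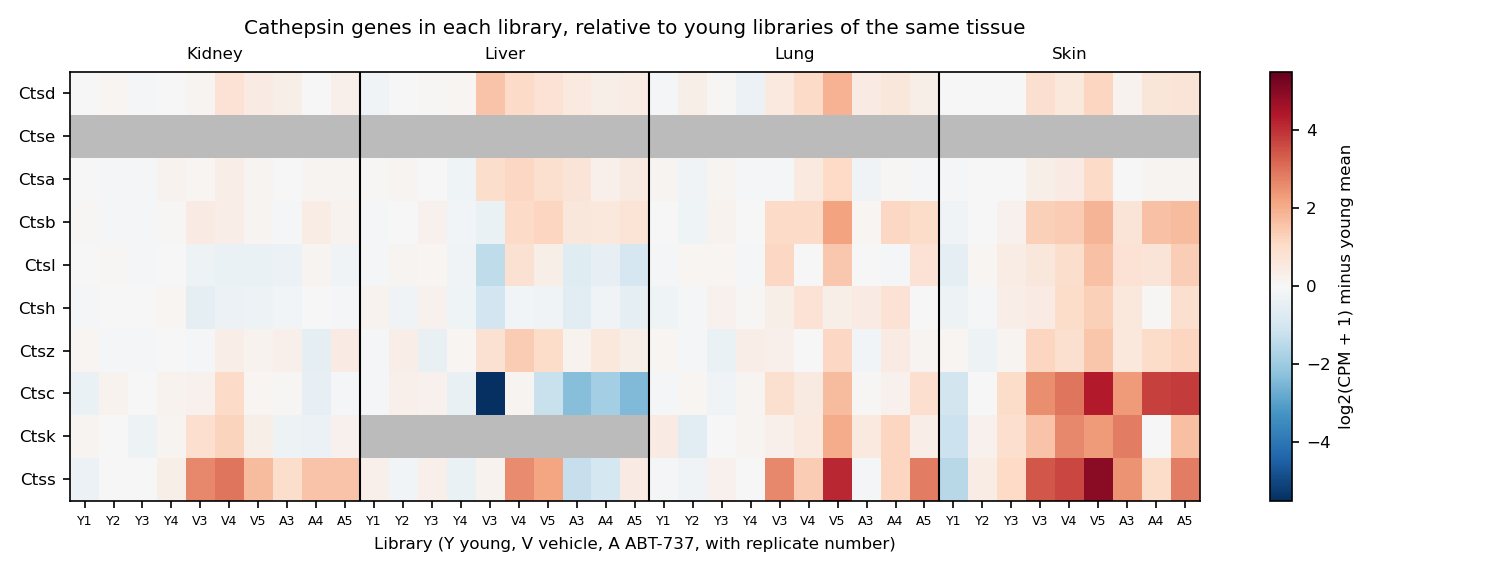
Each cathepsin gene in each library, as log2(CPM + 1) minus the mean of the young libraries of the same tissue. Red is above and blue below young, and grey marks Ctse and liver Ctsk. Liver vehicle replicate 3 (V3) is blue for Ctsc and Ctsl but red for Ctsd, and in lung and skin vehicle replicate 5 (V5) is the highest vehicle library for 8 of the 9 and 8 of the 10 members tested.

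ABT-737-treated old mice were also set against young mice. Ctss was the 1 of 9 members called in kidney, higher, where 2.12% of genes were called and 1.38% as higher, and in lung 0 of 9 members passed with edgeR (2.55% of genes), with 2 at an unadjusted p under 0.05, beside 20.5% of genes, and 0 with DESeq2. In skin Ctsb and Ctsc were called above young, 2 of 10 members beside 5.17% of genes, 2% as higher, and Ctsz missed the threshold at 0.96 ± 0.24 (SE, edgeR adjusted p = 0.0528). The difference between ABT-737 and vehicle was compared between kidney, liver and lung for 9 members in 3 pairs of tissues. None passed with edgeR or DESeq2 (lowest edgeR adjusted p = 0.556; 1 member at an unadjusted p under 0.05 between kidney and liver and 0 in the other pairs), beside 0.0839%, 0% and 0.29% of genes for kidney with liver, kidney with lung and liver with lung. For the age difference, 0 members were called between kidney and liver (0.786% of genes; 3 members at an unadjusted p under 0.05, and 0 with DESeq2) and 0 between kidney and lung (8.04% of genes; 4 members at an unadjusted p under 0.05, and 3 with DESeq2).

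Other genes of the cathepsin system were taken from lists. Of 4 further cathepsins, Ctsw, expressed by cytotoxic lymphocytes, was the only one called. It rose with age in kidney (14.8 ± 5.51 against 1.69 ± 0.887 CPM, 3.13 ± 0.40 SE, edgeR adjusted p = 8.12e-05), lung (3.26, adjusted p = 0.00799) and skin (2.34, adjusted p = 0.0172), and fell with ABT-737 in kidney (-2.52 ± 0.44 SE, edgeR adjusted p = 0.00694). A gene was tested if it had enough counts in as many libraries as the smallest group holds. Genes low in young and ABT-737-treated mice, as Ctsw in kidney, are then tested only through the vehicle group. Such genes can be called higher with age or lower with ABT-737, but hardly the reverse. The same limit may hold for Cst7 and for lists of which only a part was tested. Of the cysteine protease inhibitors, 5, 4, 3 and 4 were tested in kidney, liver, lung and skin, and 1, 3, 1 and 1 rose with age. In the same order 7.75%, 11.7%, 8.15% and 5.84% of all genes were called higher. The leukocyte cystatin Cst7 rose in kidney (4.24 ± 0.53 SE, edgeR adjusted p = 6.35e-05) and lung (5.02 ± 0.75 SE, edgeR adjusted p = 0.00259), and in kidney it fell with ABT-737 (-3.76 ± 0.60 SE, edgeR adjusted p = 0.00365). The general extracellular inhibitor Cst3 rose in liver by 1.11 ± 0.21 (SE, edgeR adjusted p = 0.00178), and the intracellular inhibitor Cstb in skin by 1.55 ± 0.33 (SE, edgeR adjusted p = 0.0242).

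Of 8 sorting and activation genes, of which 7 were tested in liver, 1, 2, 3 and 2 rose with age in kidney, liver, lung and skin, and 1 fell, in skin. The count in kidney lies near the 7.75% of all genes called higher there. Legumain (Lgmn), which cleaves several procathepsins, rose in liver (1.51 ± 0.25 SE, edgeR adjusted p = 0.000522), lung (1.58 ± 0.47 SE, edgeR adjusted p = 0.042) and skin (1.48 ± 0.33 SE, edgeR adjusted p = 0.0267), and in liver it fell with ABT-737 (-1.36 ± 0.28 SE, edgeR adjusted p = 0.0107). Psap, the saposin precursor, rose in kidney, liver and lung and fell in skin (-0.67 ± 0.18 SE, edgeR adjusted p = 0.0451). Other lysosomal hydrolases were counted too. Of 29, 19, 29 and 28 tested in kidney, liver, lung and skin, 2, 3, 8 and 9 rose with age and 3, 0, 0 and 0 fell, with medians of -0.10, 0.42, 0.59 and 0.95. Over all genes 7.75%, 11.7%, 8.15% and 5.84% were called higher in these tissues, so the counts in kidney and liver lie near the background. The lysosomal membrane protein gene Lamp2 fell in kidney (-1.05 ± 0.16 SE, edgeR adjusted p = 0.000426) and in liver (-2.53 ± 0.35 SE, edgeR adjusted p = 0.000153) and rose in lung (0.81 ± 0.22 SE, edgeR adjusted p = 0.0279). Of the membrane and acidification genes, 17 tested in each tissue but liver with 15, 1, 1, 1 and 3 rose and 2, 2, 1 and 0 fell, the counts that rose in kidney, liver and lung lying below the same shares of all genes. No lysosomal transcription factor of the 3 tested (1 in liver) was called for age or ABT-737.

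The MHC class II genes, whose invariant chain the Ctss product trims, were followed as well. With age, 9 of 9 tested rose in skin, 7 of 8 in kidney, 7 of 7 in liver and 3 of 8 in lung, and with ABT-737 7 of 8 fell in kidney and 6 of 7 in liver, with 0 of 8 and 0 of 9 called in lung and skin. Over all genes, 5.84%, 7.75%, 11.7% and 8.15% were called higher with age in skin, kidney, liver and lung. With ABT-737, 1.21% and 2.85% of all genes were called lower in kidney and liver, and 0% in lung and skin. Cd74, the invariant chain, measured 524 ± 125 against 1904 ± 529 CPM in ABT-737-treated and vehicle-treated kidney (-1.86 ± 0.23 SE, edgeR adjusted p = 0.000504) and 126 ± 40.3 against 1145 ± 558 CPM in liver (-3.18 ± 0.36 SE, edgeR adjusted p = 0.0002). The granule proteases that the Ctsc product activates were mostly too low to test, with 0, 1, 4 and 5 tested in kidney, liver, lung and skin. Those called with age, 1 in each of the last 3 tissues, were Prtn3 in liver, Gzmb in lung and Mcpt4 in skin, all higher. In these tissues 11.7%, 8.15% and 5.84% of all genes were called higher, and so few tested genes do not describe the list. Since only a part of the list was tested, the limit on direction given for Ctsw may hold here too. The treatment comparison called 0 of the granule proteases, beside medians of -3.20 over the 1 gene in liver, -0.29 in lung and -1.33 in skin.

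Macrophage and T cell markers were set beside Ctss. Of 8 macrophage markers, 6, 4, 7 and 8 were tested in kidney, liver, lung and skin, and with age 6, 4, 4 and 7 rose, while with ABT-737 2, 4, 0 and 0 fell. In the same order 7.75%, 11.7%, 8.15% and 5.84% of all genes were called higher with age, and 1.21%, 2.85%, 0% and 0% lower with ABT-737. For young, vehicle-treated and ABT-737-treated libraries in turn, the summed level of the macrophage markers spanned 94.0 to 121, 185 to 270.2 and 98.6 to 134 CPM in kidney, then 79.4 to 106, 284 to 435 and 53.1 to 94.1 in liver. In lung the ranges were 696 to 956, 990.2 to 2094 and 937 to 1386, and in skin 121 to 372, 776 to 1913 and 288 to 626. Vehicle did not overlap the ABT-737 group in kidney, liver and skin. No macrophage marker was at 0 in every library of a tissue, and Mertk had at most 3 counts per library in liver. The T cell markers, 4 of 5 tested in kidney and 5 of 5 in lung, all rose with age there, and their summed level was 29.1 to 47.9 CPM with vehicle against 5.94 to 17.1 with ABT-737 in kidney, and 34.9 to 46.2 against 0 to 4.95 in liver, where none was tested. B cell markers had another order in kidney and lung, with a median summed level of 7.07 CPM with vehicle and 18.0 with ABT-737 in kidney, and of 234 and 333 in lung, the groups overlapping in both. Hepatocyte markers in liver spanned 43846 to 61974 CPM with vehicle and 69769 to 76371 with ABT-737, without overlap. Red blood cell markers spanned 11514 to 11530 CPM with vehicle, 7505 to 11196 with ABT-737 and 990.1 to 5820.1 in young kidney, and in the same order 2662 to 3052, 884 to 2322 and 239.6 to 984 in liver. The part of these cells in the Ctss result was not tested.

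**Figure D5:**
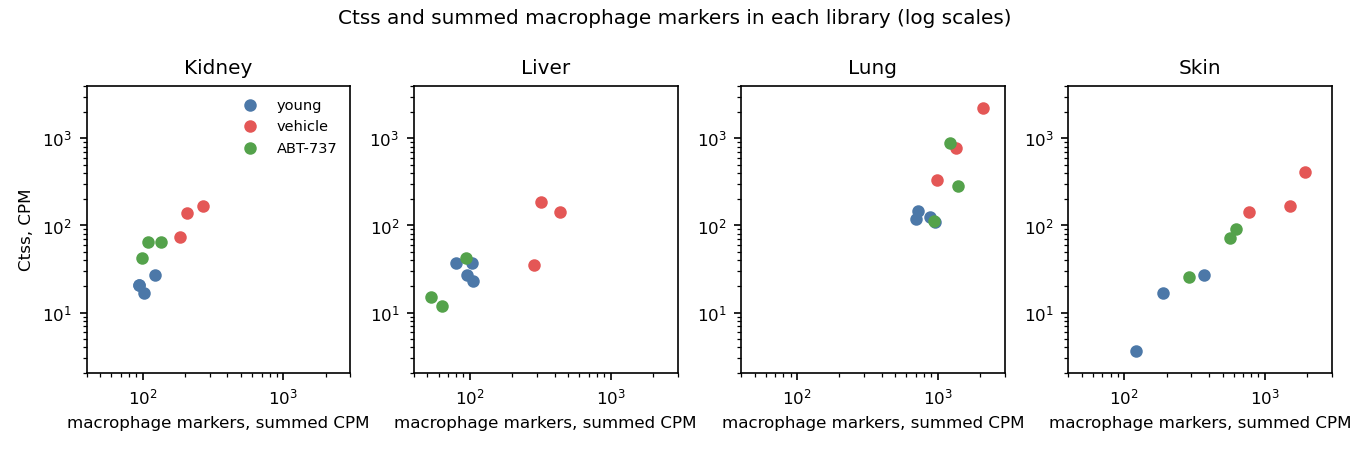
Ctss against the summed CPM of 8 macrophage markers in each library, both on log axes, by tissue. In skin both measures are higher in every vehicle library than in any other, and liver vehicle replicate 3 has macrophage markers at the vehicle level but Ctss at the young level.

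Across the 30 kidney, liver and lung libraries, each centred on its tissue, the genes most like each member were found among 5122 genes. These coefficients describe libraries that share group, depth and tissue, and no test was made. Ctss was most like Tap1 (Pearson r = 0.90), the peptide transporter of class I presentation, and the macrophage genes Aif1 (0.88) and C1qa (0.87), each also at r of 0.74 or more within every tissue. Ctsd was most like the ribosomal genes Rpsa and Rps3 and the leukocyte gene Ptprcap (all 0.87). For Ctsa the first was Junb (0.88), for Ctsb Mif4gd (0.84), for Ctsc Trim27 (0.92), for Ctsl Dnaja2 (0.90), for Ctsh Hacd2 (0.83) and for Ctsz Sdc3 (0.85). Among the members, Ctsa and Ctsd had the highest r at 0.81, then Ctsb with Ctss (0.75), Ctsc with Ctsl (0.75) and Ctsa with Ctsz (0.71), and the lowest was Ctsc with Ctsd at -0.16. In the 9 skin libraries the order was another, with Ctsb and Ctsc highest (0.98) and Ctsd with Ctsz next (0.96). Liver vehicle replicate 3, low in Ctsc and Ctsl and high in Ctsd, is 1 of the 30 points in each.

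By GENCODE M21, exons of Ctsa overlap Neurl2 and Pltp, those of Ctsb Fdft1, those of Ctsz Nelfcd and those of Ctsl Gm47123 on the opposite strand, and Ctsd and Ctsl share exon sequence with Gm49369 and Gm49230 on their own strand. Whether counting used the strand is not stated in the sources used here, so reads of these pairs may be mixed. No such overlap was annotated for Ctss, Ctsc, Ctsk, Ctsh or Ctse.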

How the data were processed

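Whole kidney, liver, lung and skin RNA was measured by bulk MARS-seq, a pooled, barcoded 3′-end method, in 39 libraries. The authors deposited raw read counts per gene, without normalization, with skin in a table of its own and the other tissues in a shared one. The submitters' processing notes name bcl2fastq, HISAT 0.1.5, HOMER and mm10. Collapsing of molecular barcodes and use of strand are not given in the sources used here.

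Counts were fitted per tissue with edgeR 4.0.16 (R 4.3.3, TMM, filterByExpr, quasi-likelihood test, all 3 groups, no covariate), with Benjamini-Hochberg adjustment over all genes tested and a threshold of 0.05. Kidney, liver and lung were also fitted jointly, for differences between tissues. The procedure was tested on simulated counts without outlier libraries, so that test does not cover calls that rest on single libraries. Alternatives were DESeq2 1.42.0, edgeR with its size factors, a filter of only 1 count in total, only the 2 groups compared, each library left out, and the replicate number as a block. Same-numbered vehicle and ABT-737 libraries were taken as paired in lung, since all 3 pairs had correlated deviations (r = 0.18 to 0.43), although not every library correlated best with its own number. In no other tissue were all pairs over 0.1. The labels do not say that a number marks a shared litter or batch.

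Members, gene lists and markers were chosen with earlier results of these data known. All 10 members were named, and from each other list at most the 3 genes called with the smallest adjusted p per tissue and comparison. Separate animals are not stated for every library, so p-values measure the spread between libraries. No library pair agreed within sampling noise. Counting intervals cover counting error only.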

Additional observations from a re-analysis of the deposited data

Results flagged for a closer look

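Ctsd in young kidney replicate 2, at 1037 CPM, lay far above the other 3 young kidney libraries for their spread. It was the only one of 27 groups of 4 libraries tested in this way to stand out, and chance alone singles out about 1 in 20. The age difference of Ctsc was lower in liver than in lung by a log2 value of -1.83 (edgeR, adjusted p = 0.0198), by a test of the difference itself. Ctsc was the 1 of 9 members called there, near the 11.4% of all genes. The call was lost without vehicle replicate 5 of either tissue.

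Some members had opposite, non-overlapping differences in skin and in another tissue. Skin comes from a separate count table, so these differences between tissues were not tested. Ctsc in ABT-737-treated against young mice was -2.26 in liver and 3.32 in skin on the log2 scale. Its counts in the ABT-737-treated liver libraries were 2, 6 and 3, near the floor. Ctsl in the same comparison was -0.68 in liver and 0.93 in skin. In vehicle-treated against young mice, Ctsl was -0.34 in kidney and 1.09 in skin, and Ctsh was -0.37 in kidney and 0.95 in skin.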

How the results depend on the processing

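No value changed sign among the members called. Counts of members called, against those reported, moved as follows. With only the 2 groups compared, ABT-737 against vehicle gave 0 in kidney and 0 in liver, vehicle against young 4 in kidney, and ABT-737 against young 4 in liver. With DESeq2, skin gave 9 for vehicle against young and 5 for ABT-737 against young, and the age difference between tissues gave 3 for kidney with lung and 2 for liver with lung. The last was also 2 with DESeq2 size factors. With no filter, vehicle against young gave 7 in lung and 8 in skin, ABT-737 against young 6 in skin, and the age difference of kidney with lung 2. The cause was not tested.

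With the replicate number of the old mice as a block, lung gave 1 for ABT-737 against vehicle. Pairing there was inferred from these same counts. Young libraries share only a number with the others. With them in the block too, lung gave 0 for vehicle against young, in place of 4, and in kidney and liver the block gave 1 in each for vehicle against young and 0 in each for ABT-737 against young. It changed no other count.

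With 1 library left out, ABT-737 against vehicle gave 0 to 4 in liver, 0 to 1 in kidney and 0 to 0 in lung and skin. Vehicle against young gave 0 to 6 in skin, 1 to 6 in lung, 4 to 6 in liver and 1 to 4 in kidney. ABT-737 against young gave 0 to 4 in skin, 0 to 0 in lung, 0 to 3 in liver and 1 to 1 in kidney. Young tissues gave 2 to 4 for kidney with liver, 6 to 6 for kidney with lung and 5 to 6 for liver with lung. Age differences gave 0 to 0, 0 to 2 and 0 to 1 for the same pairs, and ABT-737 differences 0 to 0 in each. Ctse had at most 9 counts in any kidney library and at most 2 in any liver library.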
